A study of Mus musculus with 20 samples.

Results

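Sox2, Olig1, Olig2 and Nkx2-1 encode transcription factors that direct cell fate in the nervous system and other embryonic tissues, and 3 genomic windows that hold them were examined for peaks of H3K27me3, Ezh2 and pRb in mouse embryonic fibroblasts. The windows were fixed by position in the mm9 build: 60 kb for Sox2 (chr3:34520001-34580000), 100 kb for Olig2 and Olig1 (chr16:91200001-91300000) and 70 kb for Nkx2-1 (chr12:57600001-57670000). A peak counted as a member when at least 1 bp of it lay in a window, which gave 493 of the 4480164 peaks in the 10 lists. Of these, 171 were H3K27me3 peaks, 210 were Ezh2 peaks and 112 were pRb peaks.

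The fibroblasts came from E13.5 embryos of strain C57BL/6 and were used at passage 4. The 2 genotypes appear in the sample titles as WT, taken as wild type, and SS, whose allele the labels do not describe. H3K27me3 and pRb were each immunoprecipitated from arrested and proliferating WT and SS cells, and Ezh2 from serum-deprived WT and SS cells. For arrest the labels of the H3K27me3 and Ezh2 libraries name serum deprivation. Those of the arrested pRb libraries name confluence. The protocol fields give growth in 10% serum and arrest in 0.1% serum for 72 h, but stand on every library, proliferating ones included. The pRb and H3K27me3 libraries may therefore not share an arrest protocol. Each combination had 1 library and 1 peak list. The H3K27me3 list of arrested WT cells was unlike the remaining H3K27me3 lists, with 656342 peaks against 143252 to 227847, 72.6% of them under 200 bp against 11.8% to 30.8%. No difference below has a replicate check, none was tested across samples, and no p-value is given. A difference between genotypes or growth conditions cannot be told apart from a difference between the 2 libraries compared.

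Polycomb repressive complex 2 places H3K27me3 on the tail of histone H3, with Ezh2 as its catalytic subunit, and the mark is known for covering developmental genes in broad domains in cells where those genes are silent. pRb, the retinoblastoma protein, binds E2F transcription factors and restrains entry into the cell cycle. Sox2 is an HMG-box factor of pluripotent cells and neural progenitors. Olig2 and Olig1 are basic helix-loop-helix factors of the oligodendrocyte lineage, Olig2 also of motor neuron progenitors. Nkx2-1 is a homeodomain factor of the ventral forebrain, lung and thyroid. In the RefSeq gene table (GRCm38.p6) Sox2 lies within the long noncoding RNA gene Sox2ot, Gm52261 overlaps Olig2 and is followed by Olig1, and Nkx2-1 lies between Sfta3-ps and Gm26973. That assembly is not the one of the peaks, so no peak was placed on a gene body or start site. No RNA was measured in these libraries.

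Polycomb domains in mammals are known to gather at promoters rich in the dinucleotide CpG, and the upstream sequences are shown for that reason. RefSeq (GRCm38.p6) gave the 250 bases before the start site for 3 of the 4 genes; Olig1 was not matched. They read 5′ to 3′ on the gene's strand, with each CpG in capitals:
Sox2, chr3:34649745-34649994, plus strand: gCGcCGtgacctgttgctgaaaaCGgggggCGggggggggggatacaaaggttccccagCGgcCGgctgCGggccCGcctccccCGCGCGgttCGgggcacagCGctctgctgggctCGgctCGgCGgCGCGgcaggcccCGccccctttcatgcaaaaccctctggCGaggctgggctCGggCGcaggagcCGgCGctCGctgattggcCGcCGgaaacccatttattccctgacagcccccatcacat
Olig2, chr16:91225300-91225549, plus strand: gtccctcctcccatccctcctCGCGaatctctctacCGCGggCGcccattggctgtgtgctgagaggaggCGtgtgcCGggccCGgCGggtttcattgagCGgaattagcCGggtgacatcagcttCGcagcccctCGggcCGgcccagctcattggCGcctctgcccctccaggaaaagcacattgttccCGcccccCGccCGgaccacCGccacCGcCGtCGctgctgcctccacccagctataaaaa
Nkx2-1, chr12:56536909-56537158, minus strand: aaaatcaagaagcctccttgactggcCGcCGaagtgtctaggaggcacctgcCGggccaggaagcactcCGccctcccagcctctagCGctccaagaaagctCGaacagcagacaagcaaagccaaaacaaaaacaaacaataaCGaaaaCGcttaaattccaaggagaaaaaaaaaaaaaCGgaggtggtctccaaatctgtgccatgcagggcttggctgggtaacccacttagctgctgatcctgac
The Sox2 sequence held 27 CpG and the Olig2 sequence 22, whereas the median over all 32851 promoter sequences of this length was 6. As many CpG or more were present in 8.56% of all promoters for Sox2 and in 14.8% for Olig2. The Nkx2-1 sequence held 9, a number reached by 40.3% of promoters. Their GC content was 72.0%, 66.8% and 50.8%, in the same order. The E2F-type letters TTTCGCGC, TTTGGCGC and TTTCCCGC, searched on both strands with overlaps allowed, were found in none of the 3 sequences, and 1.53% of all promoters held at least 1 of them. The absence of those letters from 250 bases says nothing of binding elsewhere in the windows.

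H3K27me3 was the only one of the 3 signals called broadly in the windows. The Ezh2 and pRb lists held no peak over 10 kb anywhere in the genome. In proliferating cells H3K27me3 peaks filled most of each window. In proliferating WT cells 88.4% of the Sox2 window, 91.5% of the Olig window and 63.6% of the Nkx2-1 window was covered. In proliferating SS cells the shares were 86.3%, 91.5% and 68.2%. The median autosomal bin of the same length was covered to between 1.13% and 3.51% in these 2 lists. Of 24001 autosomal bins of 100 kb, 46 were covered as much as the Olig window in proliferating WT cells, or 0.192%. For Sox2 the share of bins covered as much was 0.508%, and for Nkx2-1 it was 2.50%. The windows were proposed with earlier results of these data known, so these ranks describe them and are not evidence of enrichment.

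**Figure D1:**
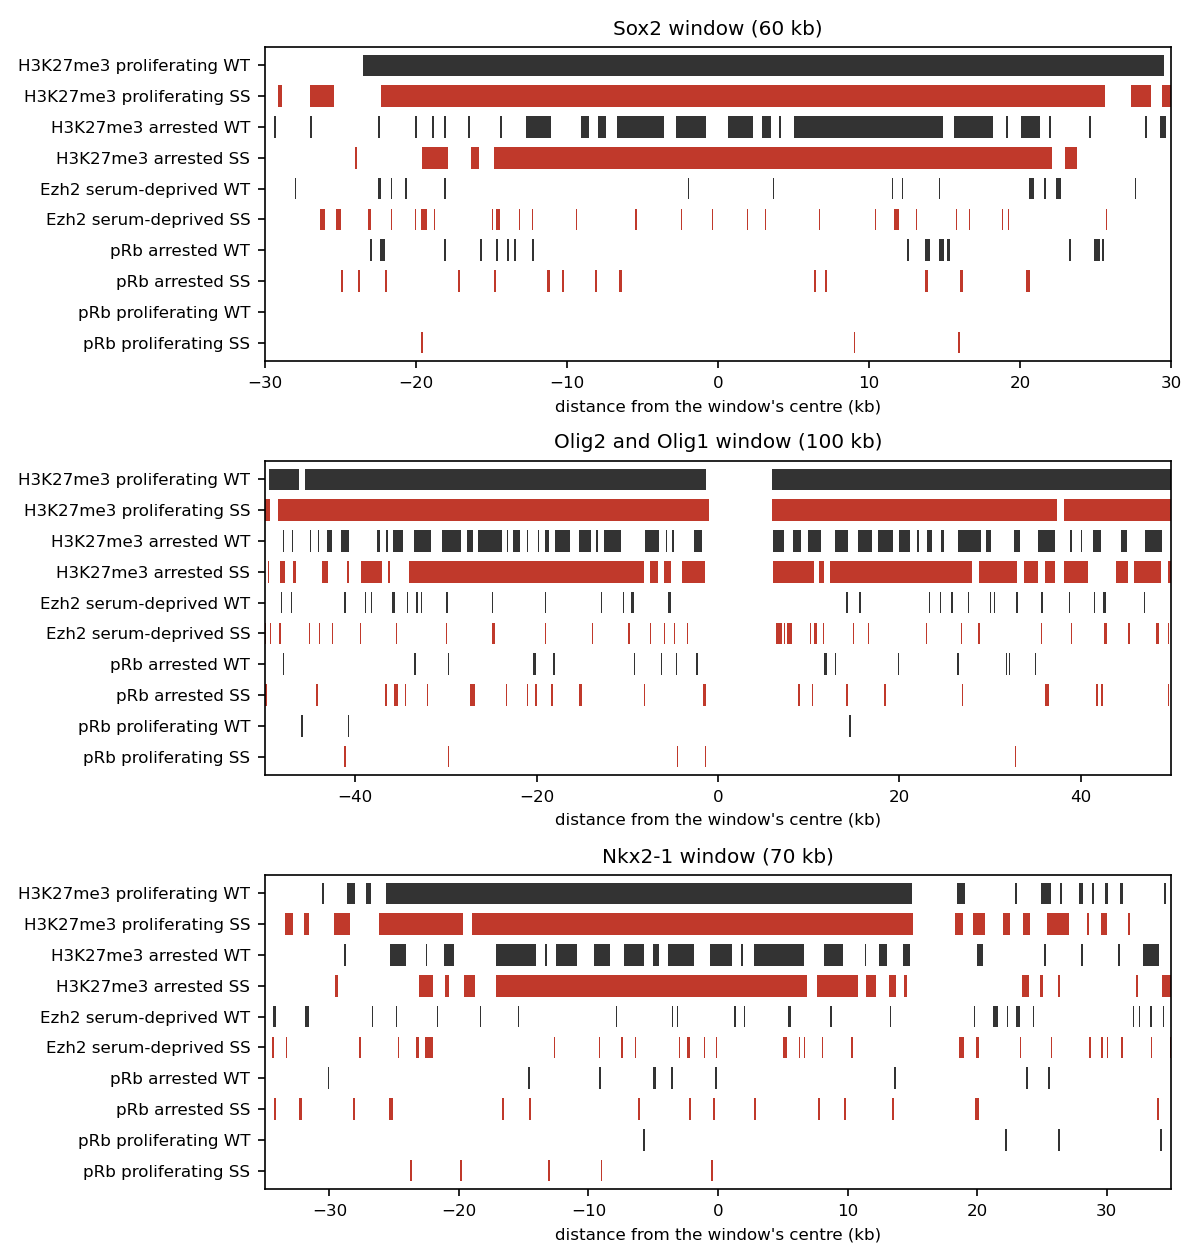
Position of every peak in the 3 windows, 1 row per library, with black for WT and red for SS; the horizontal axis is the distance from the window's centre in kb. H3K27me3 forms long blocks in proliferating cells, short pieces in arrested WT cells and intermediate blocks in arrested SS cells, while Ezh2 and pRb rows hold scattered short peaks.

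The Sox2 window held a single H3K27me3 block. In proliferating WT cells it was 1 peak of 53.1 kb (chr3:34526480-34579538), the 69th longest of 143252 peaks in its list and 124th by the authors' score. For H3K27me3 and Ezh2 peaks the score used here is the authors' -log10 q-value. In proliferating SS cells the longest peak spanned 47.9 kb (chr3:34527697-34575607), with 4 shorter peaks beside it. Its edges lay 1.22 kb inside the WT block on the left and 3.93 kb inside on the right. The bin where WT and SS differed most in proliferating cells was the right-hand end of the window (chr3:34570001-34580000), covered to 95.4% in WT and 75.7% in SS. In arrested SS cells the longest peak was 36.9 kb (chr3:34535188-34572127), set back from the proliferating WT block by 8.71 kb on the left and 7.41 kb on the right. It was the 16th longest of 227847 peaks in that list. Arrested WT cells had 24 separate peaks there, 13 of them under 200 bp. The longest of these, 9.92 kb (chr3:34554997-34564913), was nevertheless the 7th longest of 656342 peaks in the arrested WT list. Outside the window the mark fell away: the 60 kb on either side were covered to between 4.42% and 17.1% in the 4 lists.

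The Olig window held 2 blocks separated by a gap that all 4 H3K27me3 lists placed at nearly the same position. The gap was 7.31 kb (WT) and 6.95 kb (SS) long in proliferating cells and 7.83 kb (WT) and 7.49 kb (SS) long in arrested cells. The stretch common to all 4 gaps was 6.95 kb (chr16:91249008-91255954). No WT Ezh2 or pRb peak reached into it, and 1 SS Ezh2 peak (chr16:91248971-91249021) did so at its left edge, by 14 of 51 bp. To its left the proliferating WT list had a peak of 44.2 kb (chr16:91204426-91248658), and the proliferating SS list one of 47.6 kb (chr16:91201441-91249007). To its right a proliferating WT peak of 82.2 kb (chr16:91255971-91338185) ran past the window's edge. It was the 19th longest peak of its list, although 2031st by score. In proliferating SS cells the right-hand side began within 16 bp of the WT block (chr16:91255955) but was called as 2 peaks in the window. In the arrested lists both blocks were called in pieces, 45 peaks over the window in WT and 21 in SS cells. The longest was 2.65 kb in arrested WT (chr16:91223494-91226138) and 26.0 kb in arrested SS cells (chr16:91215915-91241869). The 2 sides were covered alike, to 41.5% on the left and 45.3% on the right in arrested WT, and to 70.6% and 79.3% in arrested SS cells. Unlike the Sox2 window, this one was flanked by marked sequence. The 100 kb on the left were covered to 69.4% in proliferating WT and 77.6% in proliferating SS cells, and the 100 kb on the right to 53.9% and 52.4%.

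The Nkx2-1 window held 1 block with a tail of small peaks to its right. In proliferating WT cells the block was a peak of 40.6 kb (chr12:57609359-57649986), the 84th of its list by score and 164th by length. In proliferating SS cells it appeared as a peak of 34.1 kb (chr12:57615999-57650075) and a neighbour of 6.46 kb (chr12:57608845-57615308). Their outer edges lay within 0.6 kb of the WT peak. The 34.1 kb peak ranked 32nd by score among 168793 peaks, the highest rank of any H3K27me3 peak in the 3 windows. In arrested SS cells the longest peak was 24.0 kb (chr12:57617858-57641890), set back by 8.50 kb on the left and 8.10 kb on the right. In arrested WT cells the window held 23 peaks, the longest 3.87 kb (chr12:57637802-57641675). The 70 kb to the left were covered to between 5.75% and 12.0% in the 4 lists, and the 70 kb to the right to 49.7% and 58.9% in proliferating WT and SS cells and to 18.2% and 35.2% in arrested WT and SS cells.

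Between genotypes, the extent of H3K27me3 in proliferating cells was nearly the same. Over the 230 kb of the 3 windows, SS peaks covered 191.0 kb and WT peaks 189.1 kb, a ratio of 1.01. The ratio was 0.976 for Sox2, 1.00 for Olig and 1.07 for Nkx2-1. Of WT-covered sequence, 95.5% was also covered in SS cells, against 77.0% over all autosomes. SS peaks filled 83.0% of the windows but 11.8% of the mean autosomal bin of 100 kb, so a higher share was likely in the windows. The windows hold 23 bins of 10 kb, and all had at least 10% coverage in 1 of the 2 lists. SS was higher by 1.5-fold or more in 2 of them, against 35.8% of such autosomal bins, and lower in 0, against 9.09%. Both bins lay in the Nkx2-1 window. The larger difference was in its right-hand tail (chr12:57650001-57660000), from 8.69% in WT to 26.4% in SS. A bin that is fully covered in either list can hardly change by this fold, and the median bin in the windows was covered to 100% in both lists, against 26.0% in WT and 33.7% in SS over all such autosomal bins.

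**Figure D2:**
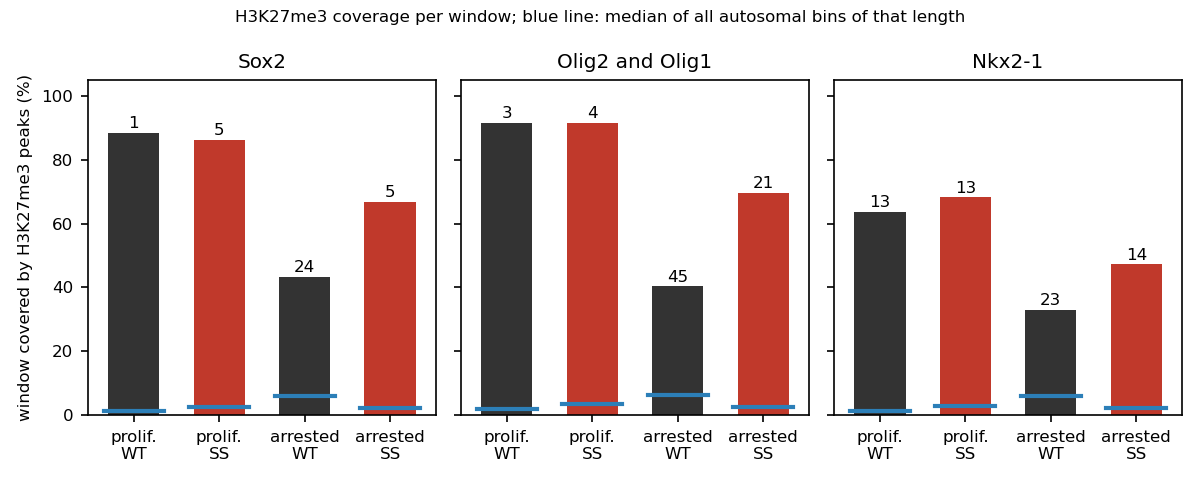
Share of each window covered by H3K27me3 peaks (vertical axis, %) in the 4 libraries, with the number of peaks above each bar and the median autosomal bin of that length as a blue line. Coverage is highest in the proliferating lists (63.6% to 91.5%) and lowest in the arrested WT list (32.8% to 43.2%), which has the most peaks in every window.

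In arrested cells the SS list covered more of all 3 windows than the WT list and did so in fewer pieces. In arrested WT cells 43.2% of the Sox2 window, 40.3% of the Olig window and 32.8% of the Nkx2-1 window was covered. The shares in arrested SS cells were 66.9%, 69.5% and 47.2%. The SS over WT ratio of covered length was 1.55 for Sox2, 1.73 for Olig, 1.44 for Nkx2-1 and 1.60 for the sum. The number of peaks went the other way, with 92 in the arrested WT list and 40 in that of SS, a ratio of 0.435. The whole arrested lists also held fewer peaks in SS, 227847 against 656342. The arrested WT peak of highest authors' score was a short one at Sox2 (chr3:34569049-34569186, 138 bp) and at Olig (chr16:91212387-91212709, 323 bp), and at Nkx2-1 one of 3.02 kb (chr12:57617894-57620910). A common cutoff of 5 on the authors' -log10 q-value turned the covered length ratio to 0.368: the arrested SS blocks of Sox2 and Nkx2-1, at 4.48 and 4.70, fell below it and the longest Olig peak, at 5.36, did not. A common cutoff of 2 left the ratio at 1.48.

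Among the 20 bins of 10 kb with at least 10% coverage in an arrested list, SS was higher by 1.5-fold or more in 12, against 35.2% of such autosomal bins, and lower in 1, against 43.2%. The median difference, SS minus WT, was 27.1 percentage points in the windows and -1.41 over all such bins. Densely marked sequence elsewhere did much the same. Among the autosomal bins covered to at least 50% in both proliferating lists, 64.6% were higher in arrested SS cells by this fold and 4.94% lower. Of the 18 bins of the windows that met this condition, 11 were higher and 0 lower. Their median difference was 30.6 points, against 20.1 over the 16805 autosomal bins. The largest gain was in the left part of the Sox2 window (chr3:34530001-34540000), from 22.6% to 70.7%. In the Olig window it was at the right (chr16:91280001-91290000), from 29.0% to 74.9%, and in the Nkx2-1 window inside the arrested SS block (chr12:57620001-57630000), from 54.8% to 100%. The losses were small: the largest, at the right end of the Nkx2-1 window (chr12:57660001-57670000), was from 16.5% to 10.9%.

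**Figure D3:**
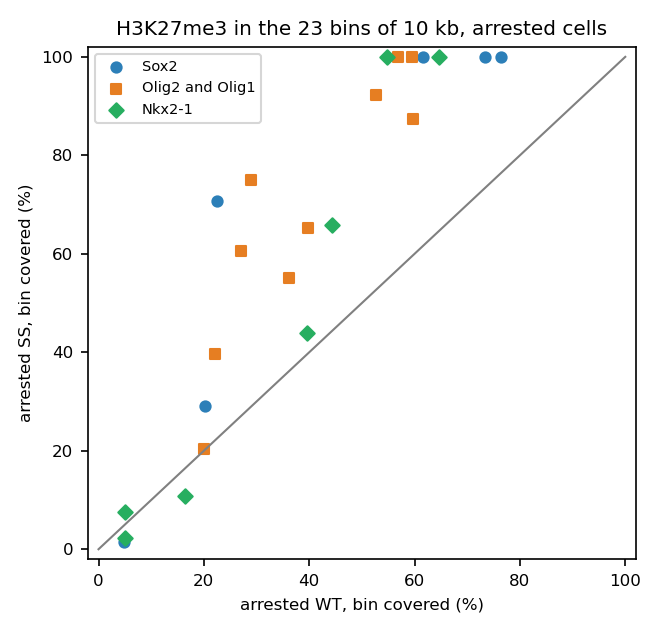
Share of each of the 23 bins of 10 kb covered by H3K27me3 peaks in arrested WT (horizontal axis, %) and arrested SS cells (vertical axis, %), with the line of equal coverage. Most bins lie above the line, and 7 are fully covered in arrested SS cells at 54.8% to 76.5% in arrested WT cells.

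The arrested peaks lay inside the proliferating blocks. Of the sequence covered in arrested WT cells, 97.3% was also covered in proliferating WT cells, against 31.0% over all autosomes. For SS cells the shares were 98.5% or more within either proliferating list, against 67.2% over all autosomes within the proliferating SS list. The proliferating lists filled 82.2% (WT) and 83.0% (SS) of the windows, against 9.79% and 11.8% of the mean autosomal bin of 100 kb. High shares were therefore likely in the windows wherever the arrested peaks lay. Of the 92 arrested WT peaks, 6 did not overlap a proliferating WT peak, 2 at Sox2 and 4 at Nkx2-1. All 45 of the Olig window did. Arrested SS peaks covered 84.8% of the arrested WT sequence, and arrested WT peaks 53.0% of the arrested SS sequence. All 4 lists shared 24.6 kb at Sox2, 33.2 kb at Olig and 17.8 kb at Nkx2-1. The longest shared run in each window was the longest arrested WT peak, whole.

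Arrested lists covered less than proliferating lists in both genotypes. The ratio of arrested over proliferating covered length was 0.472 in WT and 0.747 in SS cells. By window it was 0.489, 0.440 and 0.516 in WT and 0.775, 0.760 and 0.692 in SS cells, for Sox2, Olig and Nkx2-1 in turn. In WT cells 19 of 22 bins with at least 10% coverage were lower by 1.5-fold or more in arrest, against 53.3% of such autosomal bins, and 0 were higher, against 34.5%. In SS cells 10 of 23 bins were lower, against 69.6%, and 0 higher, against 8.49%. The median of these window bins was covered to 100% in either proliferating list, so a rise by this fold was hardly possible. Over all such autosomal bins that median was 19.1% in WT and 32.7% in SS cells. The densely marked bins were picked for high coverage in the proliferating lists, so the direction of this comparison was largely fixed in advance. Among the 18 densely marked bins 16 were lower in arrested WT cells, against 96.8% of such autosomal bins. In arrested SS cells 6 of the 18 were lower, against 65.0%, and 0 higher, against 0.00595%. Of the 92 arrested WT peaks in the windows 34 were under 200 bp, in the list that differed most in make-up. The part of that list's make-up in the WT result and in the arrested genotype comparison was not tested. Without it no arrested genotype comparison can be made, and the comparison of arrested with proliferating SS cells is the only one left for arrest, at 0.747, or 0.176 at the common -log10 q-value cutoff of 5.

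Fragmentation could be followed by merging peaks across gaps of growing width. Bridging 500 bp joined no peaks in the windows in any of the 4 lists, which held no gap that short there. The authors' caller may already have joined nearer peaks, so this step does not compare the lists. Its joining distance was not given and may differ between lists, which limits the piece numbers below. In arrested WT cells bridging 1 kb took the pieces from 24 to 11 at Sox2, from 45 to 20 at Olig and from 23 to 17 at Nkx2-1. Bridging 2 kb left 7 pieces in each window. The arrested SS list gave 2, 6 and 4 pieces at 2 kb, and the proliferating lists 1 to 4. At 5 kb the Sox2 window was 1 piece in all 4 lists and the Olig window 2 pieces, its shared gap being wider than that. The Nkx2-1 window then had 4 pieces in the arrested SS list, 2 in that of arrested WT and 1 in each proliferating list, so that there the order of the arrested lists turned. Per 10 kb of covered sequence, arrested WT cells had 9.26 peaks at Sox2, 11.2 at Olig and 10.0 at Nkx2-1. Arrested SS cells had 1.25, 3.02 and 4.23, and the proliferating lists between 0.188 and 2.92. The whole arrested lists held 656342 peaks over 189.7 Mb in WT and 227847 over 171.6 Mb in SS cells. The proliferating ones held 143252 over 248.3 Mb and 168793 over 285.9 Mb. Peaks were thus fewer per covered length in the windows than in each whole list.

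**Figure D4:**
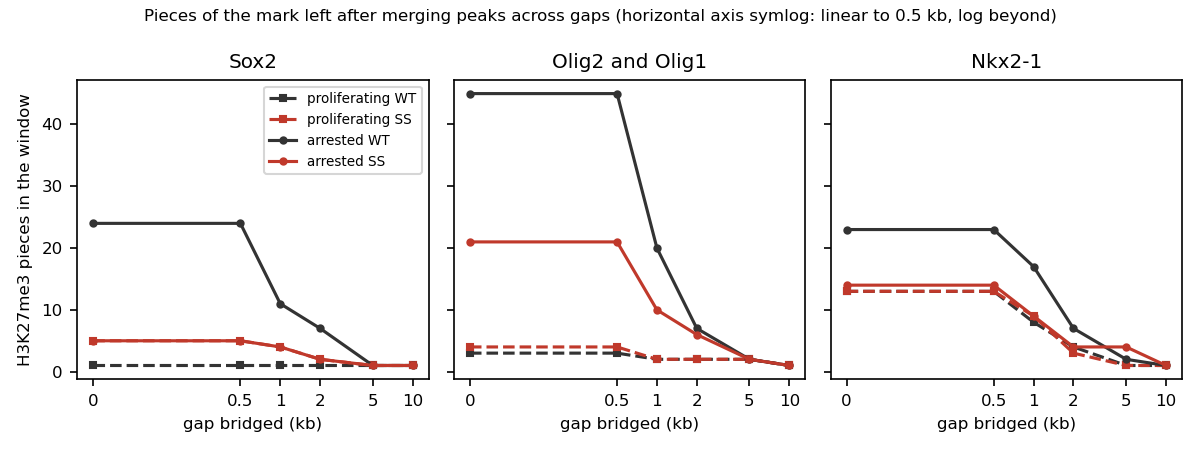
Number of H3K27me3 pieces in each window (vertical axis) after merging peaks across gaps of up to the stated width (horizontal axis, kb, linear to 0.5 and logarithmic beyond), with solid lines for arrested and dashed lines for proliferating cells. The arrested WT line starts highest in each window, at 23 to 45 pieces, and falls to 1 or 2 pieces at 5 kb, where at Nkx2-1 it lies below the arrested SS line (2 against 4 pieces).

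Ezh2, the enzyme that places the mark, showed no broad domain in any of the windows. Its peaks in the windows had a median length of 50 bp in WT and 51 bp in SS cells, and the longest were 370 and 696 bp. The whole lists had the same medians, with longest peaks of 5160 and 5818 bp, so short peaks were not particular to the windows. In WT cells 3.21% of the Sox2 window, 4.60% of the Olig window and 4.48% of the Nkx2-1 window was covered. In SS cells the shares were 5.15%, 6.65% and 6.44%. The median autosomal bin was covered to between 3.21% and 3.25% in WT and 4.95% and 4.97% in SS cells. The Olig window stood highest among autosomal bins of its length, with 8.32% of bins covered as much in WT and 11.6% in SS cells, and Sox2 near the middle, at 50.3% and 44.6%. The SS over WT ratio of covered length was 1.48 over the windows, and 1 of the 3 windows, Sox2 at 1.61, was higher in SS by 1.5-fold or more. Of all autosomal bins of 100 kb 53.8% were.

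Ezh2 coverage inside and outside the H3K27me3 peaks of arrested cells was close. In WT cells Ezh2 peaks covered 4.59% of the sequence inside arrested H3K27me3 peaks and 3.95% of the rest of the windows, a ratio of 1.16. In SS cells the values were 6.20% and 6.18%, a ratio of 1.00. Over all autosomes the same ratios were 1.18 and 1.19. Within the windows the WT ratio ran from 0.803 at Nkx2-1 to 1.47 at Olig, and the SS ratio from 0.795 at Sox2 to 1.22 at Nkx2-1. Of the 87 WT Ezh2 peaks, 13 overlapped one of the 123 SS Ezh2 peaks, which is 14.9% (95% Wilson interval 8.95 to 23.9) of the WT and 10.6% (6.28 to 17.2) of the SS peaks. The shares over the whole lists were 11.3% and 8.02%. Such intervals cover counting error over peaks only. The Ezh2 peak of highest score was at chr3:34553639-34553688 in the Sox2 window, chr16:91219449-91219498 in the Olig window and chr12:57648291-57648340 in the Nkx2-1 window in WT cells. All 3 were 50 bp long, lay in the proliferating and arrested SS H3K27me3 peaks, and had no SS Ezh2 peak on them. The SS counterparts were chr3:34544503-34544636, chr16:91260153-91260276 and chr12:57600566-57600720, of which the last lay outside all H3K27me3 peaks and was overlapped by a WT Ezh2 peak.

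pRb peaks were likewise short and scattered. Short peaks were the rule in the whole pRb lists too, with median lengths of 145 to 166 bp. In arrested WT cells 15, 16 and 9 peaks lay in the Sox2, Olig and Nkx2-1 windows and covered 5.00%, 2.71% and 1.94%. In arrested SS cells 14, 23 and 15 peaks covered 3.88%, 5.19% and 3.91%. The median autosomal bin was covered to between 3.07% and 3.11% in WT and 5.51% and 5.53% in SS cells, so that Sox2 in WT cells was the only window above it. Of autosomal bins 5.97% were covered as much as Sox2 there. The 15 WT peaks of the Sox2 window lay towards its ends, with 24.7 kb between them free of pRb calls (chr3:34537814-34562518). The arrested SS list had peaks in that stretch, but its own widest gap, 12.7 kb (chr3:34543616-34556327), lay wholly inside it. Both lists thus left the middle of the window free of pRb calls. The SS over WT ratio of covered length was 1.45 over the windows, 0.777 for Sox2, 1.92 for Olig and 2.02 for Nkx2-1. By window, SS was higher by 1.5-fold or more in 2 of 3, against 69.3% of autosomal bins of 100 kb. With both lists limited to the same number of highest-scoring peaks the ratio over the windows turned to 0.800.

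In proliferating cells few pRb peaks were called. The WT list had 0 peaks at Sox2, 3 at Olig and 4 at Nkx2-1, and the SS list 3, 5 and 5. They covered at most 0.920% of a window in WT and 1.01% in SS cells. SS was higher by 1.5-fold or more, or had coverage where WT was listed at 0, in 2 of 3 windows, against 45.8% of autosomal bins. The ratio over the windows was 1.60, and 0.760 with the higher-scoring 50% of each list. Arrested lists covered more than proliferating lists by at least that fold in all 3 windows. The same held for 99.7% of autosomal bins in WT and 99.9% in SS cells. The ratio over the windows was 6.64 in WT and 6.02 in SS cells. With both lists limited to the same number of highest-scoring peaks the ratios were 1.07 and 0.676.

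**Figure D5:**
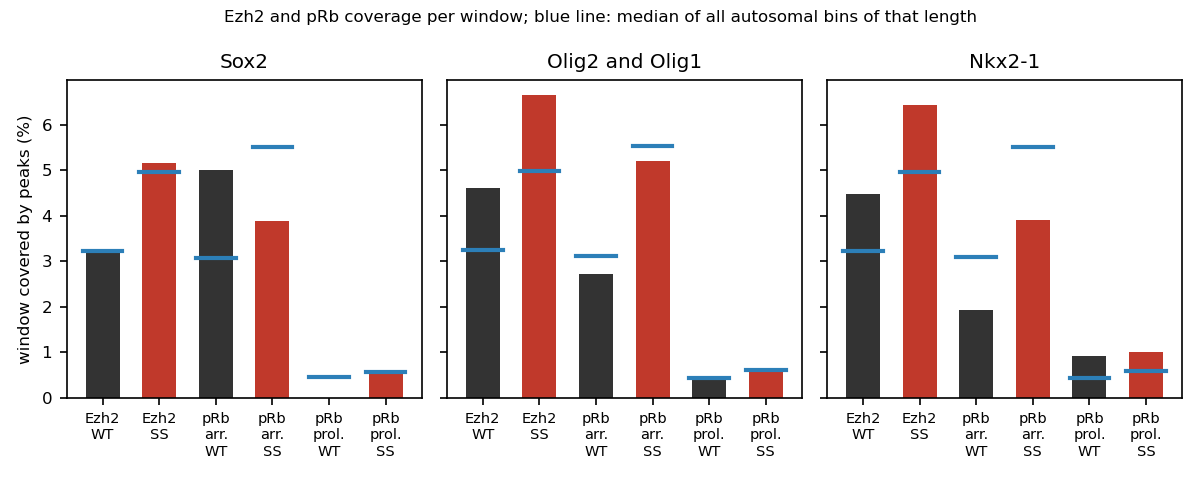
Share of each window covered by Ezh2 and pRb peaks (vertical axis, %) in the 6 libraries, black for WT and red for SS, with the median autosomal bin of that length as a blue line. All bars stay below 7%, and pRb in arrested WT cells at Sox2, at 5.00%, is the only arrested pRb bar above its line.

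Inside arrested H3K27me3 peaks, pRb peaks of arrested WT cells covered 2.85% of the sequence and 3.21% elsewhere in the windows, a ratio of 0.890. In SS cells the values were 4.57% and 4.28%, a ratio of 1.07. Over all autosomes the ratios were 1.15 and 1.10. The windows went both ways: the WT ratio was 0.691 at Sox2, 0.564 at Olig and 2.67 at Nkx2-1, and the SS ratio 1.41, 0.819 and 1.19. All of the sequence under arrested WT pRb peaks at Sox2 and Olig lay within the proliferating WT H3K27me3 blocks, which left little of those windows outside. Of the 40 pRb peaks in arrested WT cells, 5 overlapped one of the 52 in arrested SS cells, which is 12.5% (95% Wilson interval 5.46 to 26.1) of the WT and 9.62% (4.18 to 20.6) of the SS peaks. Whole-list shares were 11.0% and 7.21%. With Ezh2 of the same genotype, 6 of 40 arrested WT pRb peaks overlapped, or 15.0% (7.06 to 29.1), against 10.3% of the whole list. In SS cells it was 8 of 52, or 15.4% (8.01 to 27.5), against 16.4%. Each whole-list share lay within the interval of the windows. These intervals rest on 5 to 8 overlapping peaks and treat peaks of 1 library as independent. They are too wide to tell a difference from none. The arrested pRb peaks of highest score in the windows were in WT cells at Sox2 (chr3:34535280-34535415), where the arrested SS pRb and SS Ezh2 lists also had a peak, and in SS cells at Nkx2-1 (chr12:57644717-57644884), where no other pRb or Ezh2 list had one. In the Olig window they were chr16:91282090-91282243 in WT and chr16:91231629-91231826 in SS cells, the latter overlapped by a WT pRb peak.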

How the data were processed

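Peak lists of 10 immunoprecipitated libraries were used, grouped by sample title; the 10 inputs were not analysed here. Per the submitters' processing notes, reads and peaks were handled with Bowtie2, bedtools, HOMER and MACS2 on mm9; versions, roles, control and thresholds were not given in the sources used here. Each library has its own list. The 4 deposited pRb lists give a score of unstated unit, from 20 up. The 6 other deposited lists hold a score, the fold enrichment as a ratio, and the -log10 p-value and -log10 q-value of the authors' caller; these are the authors' values and were used only to rank or filter peaks. Score ranks of H3K27me3 and Ezh2 peaks used the -log10 q-value, not the separate score of those lists. No counts were used, so depth is unknown. A deeper library can yield more and weaker peaks, and other caller settings change peak length.

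Covered length is the summed length of peaks clipped to a window. Background bins tile the 19 autosomes, leaving out bins with no peak in any list; fold calls used 1.5. The windows and lists were chosen with earlier results of these data known. Named peaks were the longest and the highest-scoring per window and list, and the 10 kb bins of largest genotype gain and loss. Functions were tested on simulated intervals. Alternatives were a 500 bp minimum, the higher-scoring 50% of each list, equal list lengths, merging within 1 kb, wider windows, a 50% overlap and other H3K27me3 peaks. Calculations ran in Python 3.11.15 with pandas 2.3.3, numpy 2.4.6 and scipy 1.17.1, and plots in matplotlib 3.10.9.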

Additional observations from a re-analysis of the deposited data

Results flagged for a closer look

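Some SS over WT ratios lay on opposite sides of 1 in arrested and proliferating cells. Each rests on 1 library per group, and the difference between growth conditions was not tested. At Sox2 the ratio of H3K27me3 covered length was 1.55 in arrested and 0.976 in proliferating cells, the latter being nearly equal coverage. There the ratio of peak number was 0.208 (5 against 24 peaks) and 5.00 (5 against 1). In the Olig window the peak number ratio was 0.467 in arrested and 1.33 in proliferating cells. For pRb at Sox2, the arrested SS over WT ratio was 0.777 in covered length and 0.933 in peak number, whereas in proliferating cells SS had 3 peaks where WT was listed at 0. The proliferating differences in peak number come from 1 to 5 peaks.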

How the results depend on the processing

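Of 59 alternative values for 17 results, 47 stayed within 1.5 times the reported one. The other 12 moved further, and 5 of these fell on the other side of 1. The arrested H3K27me3 SS over WT covered length ratio of 1.60 was 2.88 with equal list lengths and 0.368 at the common -log10 q-value cutoff of 5; cutoffs were added after the data had been seen. There the arrested over proliferating ratio in SS cells was 0.176; equal list lengths gave 0.142 in WT cells. The proliferating H3K27me3 peak number ratio was 2.25 among peaks of at least 500 bp. For pRb, the SS over WT ratio was 0.800 in arrested cells with equal list lengths and 0.760 in proliferating cells with the higher-scoring 50% of each list. The arrested over proliferating pRb ratio was 4.33 in WT cells with the higher-scoring 50%, and with equal list lengths 1.07 in WT and 0.676 in SS cells. Taken inside proliferating in place of arrested H3K27me3 peaks, the inside over outside ratio of pRb coverage was 4.96 for WT and 1.93 for SS; the proliferating peaks left only 17.8% and 17.0% of the windows outside. The cause of these changes was otherwise not tested. A minimum of 500 bp left 0 pRb or Ezh2 base pairs in at least 1 of each pair of lists and gave no ratio. No paired analysis was possible because each group holds 1 library.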

Other observations

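Of the 322 pRb and Ezh2 peaks in the windows, 1 overlapped peaks of 7 other lists and none overlapped more. The peak was a WT Ezh2 peak, chosen after its values were seen, in the left block of the Olig window (chr16:91220026-91220249). It met all 4 H3K27me3 lists, the SS Ezh2 list, pRb of arrested WT cells and pRb of proliferating SS cells. The authors gave it a -log10 q-value of 1.37.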
